A study of Mus musculus with 6 samples.

Results

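B cell and plasma cell genes were examined as a group in mouse lung tumours induced by urethane, a chemical carcinogen, and in control lung. The group was defined by gene name: 35 names of B cell receptor parts, immunoglobulin constant regions, B cell surface proteins, B lineage transcription factors and plasma cell genes. Of these, 31 were found among the 33924 gene names of the count table, with the joining chain gene under its older name Igj. Ighd and Igha were not matched, and Mzb1 was counted only under an older name, 2010001M09Rik, whose values are given beside the group but are not part of it. All 31 passed the filter on low counts.

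B cells recognise antigen through a membrane immunoglobulin, made of heavy and light chains, that signals through the invariant chains CD79A and CD79B. The transcription factors Pax5 and Ebf1 hold the B cell programme in place. When a B cell becomes an antibody-secreting plasma cell, Prdm1 shuts down Pax5 and much of the surface programme, and immunoglobulin transcripts and the joining chain become very abundant. In lung, B cells circulate through the blood vessels and gather in lymphoid aggregates, and plasma cells lie near the airways.

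Messenger RNA was measured by bulk RNA sequencing of lung or tumour tissue in 2 groups of 3 libraries from the inbred strain FVB/NJ. The tumour group (replicates 1, 2 and 4) comes from lung tumours of mice given urethane intraperitoneally at 1 g per kg. The control group (replicates 1, 2 and 3) is normal lung; the protocol names saline as the other treatment, and both groups were collected at 6 months. How tumours were cut out of the lung, and whether each library is a separate animal, is not given in the labels, so p-values cover the spread between these libraries, which may be technical. In bulk tissue, fewer cells of a type and less RNA per cell cannot be told apart.

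Library totals were 48509129 to 62336537 counted reads in tumours and 38996532 to 59037341 in control lung. Sftpc, the surfactant protein C gene that marks alveolar type 2 cells, was at 9983, 25420 and 19070 CPM (read counts scaled to library size) in tumours, against 7396, 4468 and 4089 CPM in control lung. Tumour replicate 2 stood apart: its Xist level was 3359 CPM, against 32.9 CPM or less elsewhere, and each of 4 Y-linked genes was at 0.215 CPM or less, against 37.6 CPM or more in the remaining 5 libraries. Values without this library are given beside results that it moves. In the edgeR quasi-likelihood fit of tumour against control over 20001 genes, 42% had an adjusted p (Benjamini-Hochberg) under 0.05 and are called changed, 23.8% lower and 18.1% higher in tumours, with a median log2 fold change of 0.01.

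Transcription factors of the group act through short DNA motifs in the promoters of B cell genes: the octamer ATGCAAAT, to which Pou2af1 is recruited by Oct proteins, the palindromic EBF motif, and GAGGAAGT, a core bound by the related Ets factors PU.1 and Spib. These motifs were sought without mismatches on both strands in RefSeq promoter windows (GRCm38.p6, 250 bases before to 50 after the start), which matched 25 of the 31 genes in 29 windows. The octamer was found in 2 genes, Vpreb3 and Blnk, and in 1.74% of all 32851 windows. The EBF motif was found in 1 gene, Cd22, and in 0.904% of all windows. The third motif was found in 4 genes, Fcrl1, Cd53, Cd72 and Cd37, and in 3.2% of all windows. A match is only a description of the letters, and no binding was measured here. An example of each motif is shown in capitals within its window, 5′ to 3′ on the gene's strand, the octamer and the third motif in reverse complement: Vpreb3 (chr10:75948050-75948349, plus strand), Cd22 (chr7:30878979-30879278, minus strand) and Fcrl1 (chr3:87376137-87376436, plus strand). The matches begin at -45, -49 and -15 from the start site in Vpreb3, Cd22 and Fcrl1 in that order.
Vpreb3: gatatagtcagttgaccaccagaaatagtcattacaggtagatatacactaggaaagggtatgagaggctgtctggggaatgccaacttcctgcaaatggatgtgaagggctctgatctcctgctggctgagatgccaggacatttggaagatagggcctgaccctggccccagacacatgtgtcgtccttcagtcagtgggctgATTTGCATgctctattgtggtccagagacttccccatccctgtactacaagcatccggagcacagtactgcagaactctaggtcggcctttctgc
Cd22: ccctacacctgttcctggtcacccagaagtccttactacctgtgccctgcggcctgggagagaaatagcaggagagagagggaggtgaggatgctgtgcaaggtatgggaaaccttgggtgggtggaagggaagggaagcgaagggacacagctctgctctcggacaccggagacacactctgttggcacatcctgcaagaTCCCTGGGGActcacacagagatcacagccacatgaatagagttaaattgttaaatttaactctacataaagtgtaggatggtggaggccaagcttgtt
Fcrl1: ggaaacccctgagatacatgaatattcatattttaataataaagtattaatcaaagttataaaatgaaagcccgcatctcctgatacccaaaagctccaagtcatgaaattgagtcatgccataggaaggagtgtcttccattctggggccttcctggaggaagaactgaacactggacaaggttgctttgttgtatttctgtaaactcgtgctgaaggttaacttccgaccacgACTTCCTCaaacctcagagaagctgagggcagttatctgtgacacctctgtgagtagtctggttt

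Most of the B cell programme was much lower in tumours, while Igkc and Igj varied widely between the tumours. Of the 31 genes, 26 were lower, 1 was higher and 4 did not pass (Igkc, Igj, Btk and Cd72). The share of all genes called lower, 23.8%, is the background for that count. Their median log2 fold change was -2.77, and for 11 of the 26 the fitted change was 10-fold or more. CPM values lay below all control values in every tumour for 28 of the 31 genes, against 29.9% of all genes tested, and above all control values for 1, against 26.1% of all genes. By role, the genes called lower were 3 of 3 in the antigen receptor group (Cd79a, Cd79b and Vpreb3) and 2 of 3 immunoglobulin constant genes. Also lower were 3 of 4 of receptor signalling, 12 of 13 surface protein genes and 5 of 5 transcription factors. Of the plasma cell genes, 1 of 3 was lower.

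**Figure D1:**
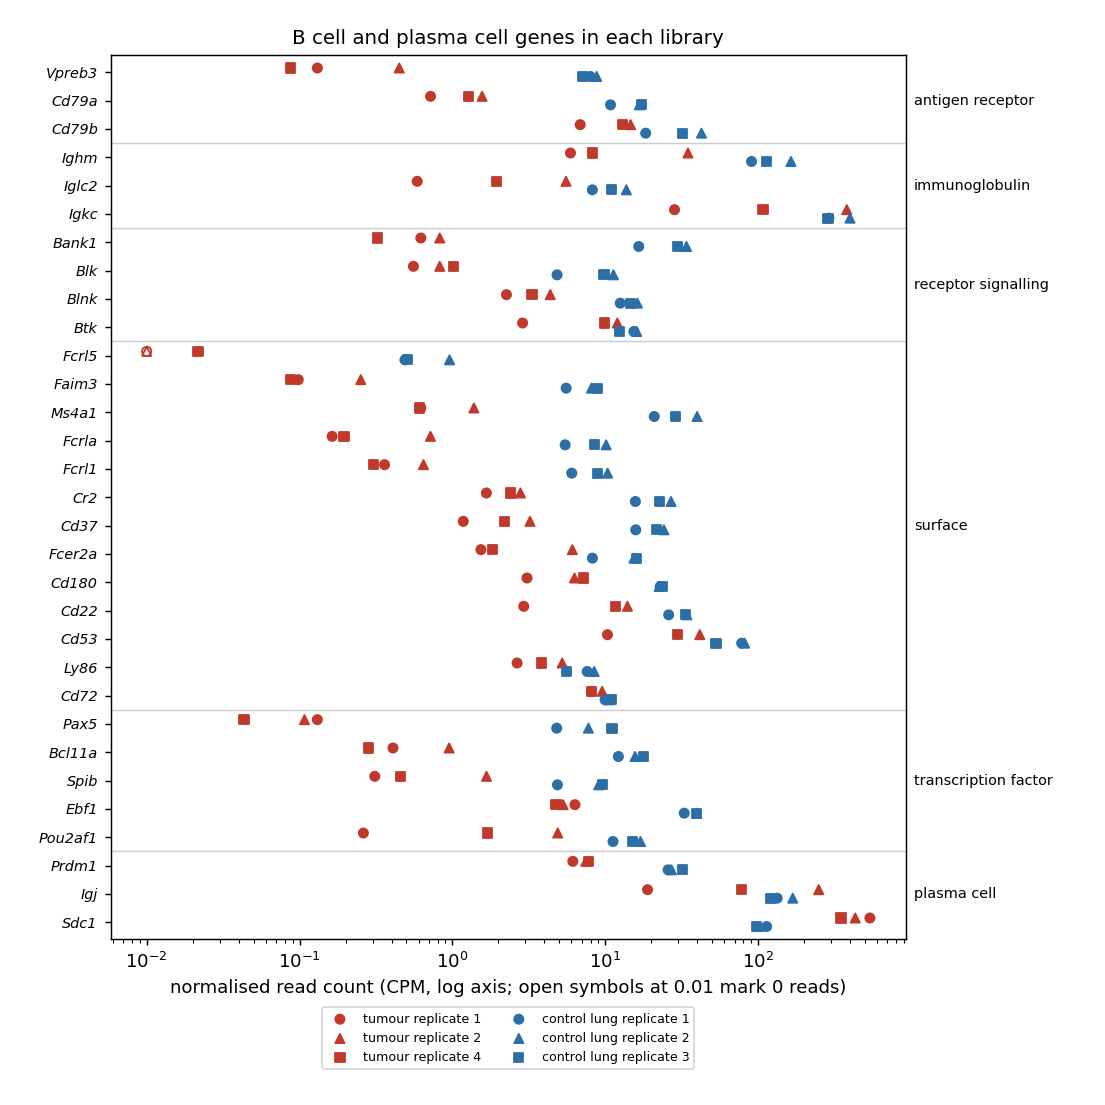
Normalised read counts (CPM, log axis) of the 31 genes by role, with 1 symbol per library, the 3 tumours in red and the 3 control lungs in blue; open symbols at 0.01 stand for 0 reads. For 28 genes the red symbols all lie left of the blue ones, Sdc1 is the reverse, and in Igkc and Igj the tumour replicate 2 triangle lies among or above the controls.

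**Figure D2:**
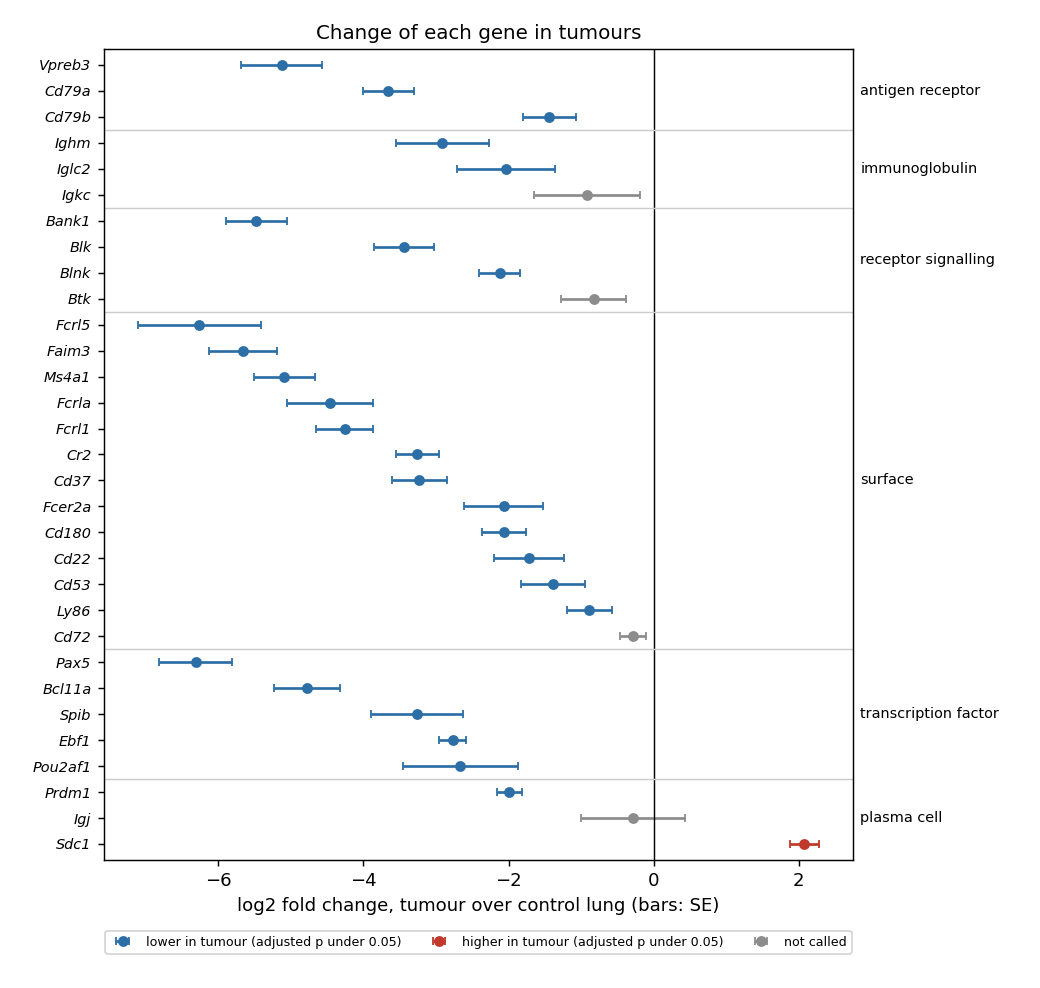
Log2 fold change, tumour over control lung, for each of the 31 genes from the edgeR fit, with bars of 1 SE. Of the 26 genes called lower, Pax5 is at -6.31 and Ly86 at -0.89, Sdc1 alone is called higher, and the fitted value of Fcrl5 rests on 1 tumour read.

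All 3 genes grouped under the antigen receptor (Cd79a, Cd79b and Vpreb3) were lower in tumours. The immunoglobulin chains are given apart from them. Cd79a, the CD79A signalling chain, had 0.719, 1.56 and 1.28 CPM in tumour replicates 1, 2 and 4, against 10.8, 16.7 and 17.3 CPM in control lung. It was 12.6-fold lower in tumours (log2 fold change -3.66 ± 0.35 SE, adjusted p = 0.000118, n = 3 per group). Its partner Cd79b had 6.85, 14.6 and 12.9 CPM in tumours, against 18.4, 42.5 and 32.1 CPM in control lung, a log2 fold change of -1.44 ± 0.37 (adjusted p = 0.0139). The Cd79b call was lost without control replicate 2 (adjusted p = 0.0592) or control replicate 3 (adjusted p = 0.0554). Some 12% of the 32-base words of the Cd79a transcript also occur in another gene, Gm32220, against 0% shared for Cd79b. CD79A and CD79B form a heterodimer, and the Cd79b to Cd79a ratio of CPM was 9.52, 9.37 and 10.1 in the tumours, against 1.70, 2.55 and 1.85 in control lung. This ratio, like the others given here, was picked after the values were seen and is a description. Exact permutation tests of the log2 gene-to-gene ratios gave p from 0.1 to 0.9, and no conclusion rests on them. Vpreb3, whose protein associates with newly made heavy chains in B lineage cells, had 0.131, 0.449 and 0.0868 CPM in tumours, against 7.96, 8.78 and 7.06 CPM in control lung. Its log2 fold change was -5.13 ± 0.56 (adjusted p = 0.000206), and -6.13 without tumour replicate 2.

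Of the immunoglobulin constant genes, the IgM heavy chain gene fell while the main light chain did not pass. Ighm, the IgM heavy chain (chr12:114659078-114660941 in mm9, the coordinates of the count table), had 5.92, 34.7 and 8.29 CPM in tumours, against 90.4, 163.8 and 113.9 CPM in control lung. Tumour replicate 2 was the highest of the tumours but still below every control. The log2 fold change of Ighm was -2.91 ± 0.64 (adjusted p = 0.00731), and -4.11 without tumour replicate 2. Igkc, the kappa light chain constant region (chr6:70676429-70676751 in mm9), had 28.3, 379 and 107 CPM in tumours, against 289.8, 398.5 and 285.8 CPM in control lung. Tumour replicate 2 lay within the control range and the other tumours lay below it. The Igkc log2 fold change was -0.92 ± 0.74 (adjusted p = 0.355), and without tumour replicate 2 it was -2.25 and passed (adjusted p = 0.00994). Iglc2, a lambda light chain constant region, had 0.588, 5.53 and 1.93 CPM in tumours, against 8.23, 13.7 and 10.98 CPM in control lung. It was lower at -2.03 ± 0.67 (adjusted p = 0.0406), and at -3.14 without tumour replicate 2. Its call was lost without tumour replicate 4, control replicate 1, 2 or 3 (adjusted p = 0.108, 0.0649, 0.121 and 0.114 in that order). Some 19% of the 32-base words of the Iglc2 transcript also occur in Iglc3 or Iglj2, so reads of the lambda genes may be split between them.

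Plasma cell genes did not move as a block. Igj (chr5:88949537-88956916 in mm9), the joining chain that links IgM and IgA into polymers, had 18.9, 248.6 and 77.5 CPM in tumours, against 133, 168 and 120 CPM in control lung. Tumour replicate 2 was above every control, and the other tumours were below every control. The Igj log2 fold change was -0.29 ± 0.72 (adjusted p = 0.777). Without tumour replicate 2 it was -1.54 and passed (adjusted p = 0.0455), and without tumour replicate 1 it was 0.25 (adjusted p = 0.642). The row under the older name of Mzb1, an endoplasmic reticulum chaperone of antibody-secreting cells, had 0.507, 3.86 and 1.06 CPM in tumours, against 5.54, 6.26 and 6.46 CPM in control lung. With all libraries it did not pass in the main edgeR fit (-1.75 ± 0.64, adjusted p = 0.0592). It did pass with DESeq2 and with limma-voom (adjusted p = 0.0123 and 0.0124). The same held with library totals only and with no filter on low counts (adjusted p = 0.0271 and 0.0438). Without tumour replicate 2 the row passed in the edgeR fit (-2.96, adjusted p = 0.000858).

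Prdm1, the repressor also called Blimp-1 that drives plasma cell formation and is made in other cells too, had 6.13, 7.45 and 7.74 CPM in tumours, against 25.8, 27.1 and 31.8 CPM in control lung. The tumours were closely grouped and the log2 fold change was -1.99 ± 0.18 (adjusted p = 8.08e-05). Sdc1 encodes syndecan 1, the plasma cell surface marker CD138, which epithelial cells make as well. It had 538, 431 and 348 CPM in tumours, against 113.5, 100.7 and 97.9 CPM in control lung, 4.22-fold higher in tumours (log2 fold change 2.08 ± 0.20, adjusted p = 0.000113). It was the only 1 of the 31 genes called higher. Epithelial genes moved the same way: 8 of 10 were higher and 0 lower, with a median log2 fold change of 2.0, and their summed level was 1053 to 1632 CPM in tumours and 402.6 to 491.3 CPM in control lung. Esrp1, an epithelial splicing regulator, and Grhl2, an epithelial transcription factor, were at 2.32 ± 0.14 and 1.78 ± 0.15 (adjusted p = 1.91e-05 and 6.71e-05). Their part in the Sdc1 result was not tested.

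Per kilobase of exon, Igkc was the most abundant of the 31 genes in both groups, at 531.5 RPKM in tumours and 1005 RPKM in control lung. Sdc1 came next in tumours, at 115 RPKM, against 27.3 RPKM and the fourth place in control lung. Igj was in the third place in both groups, at 63.4 RPKM in tumours and 77.5 RPKM in control lung. Ighm was in the fourth place in tumours at 11.9 RPKM, and next to Igkc in control lung at 89.8 RPKM.

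Igj and Igkc were close to or above control levels in tumour replicate 2. This library was the highest tumour for 24 of the 31 genes, against 31.1% of all genes tested. As a percentage of the control mean, its level was 177% for Igj, 117% for Igkc, 63.4% for the Mzb1 row, 50.4% for Iglc2 and 28.3% for Ighm. Other constant rows were lower there, at 28.3% for Ighg, 15.5% for Iglc3, 11.4% for Ighg2c and 10.9% for Ighg1. B cell genes in the same library covered a wide range that overlapped the antibody genes, with 90.8% for Cd72, 47.2% for Cd79b, 46.0% for Fcer2a, 44.7% for Cd22, 15.7% for Cd37, 10.5% for Cd79a, 4.64% for Ms4a1 and 1.37% for Pax5. Some ratios differed in every tumour. The ratio of Igj to Ms4a1 CPM was 30.4, 180 and 128 in tumours, against 6.37, 4.22 and 4.20 in control lung. Igkc over Cd79a was 39.4, 243 and 83.9 in tumours, against 26.8, 23.9 and 16.5 in control lung, and Igkc over Ighm was 4.79, 10.9 and 12.96 in tumours, against 3.20, 2.43 and 2.51. In each of these ratios every tumour lay above every control. Ighm over Cd79a, in contrast, overlapped between the groups, at 8.23, 22.2 and 6.48 in tumours and 8.37, 9.81 and 6.57 in control lung.

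**Figure D3:**
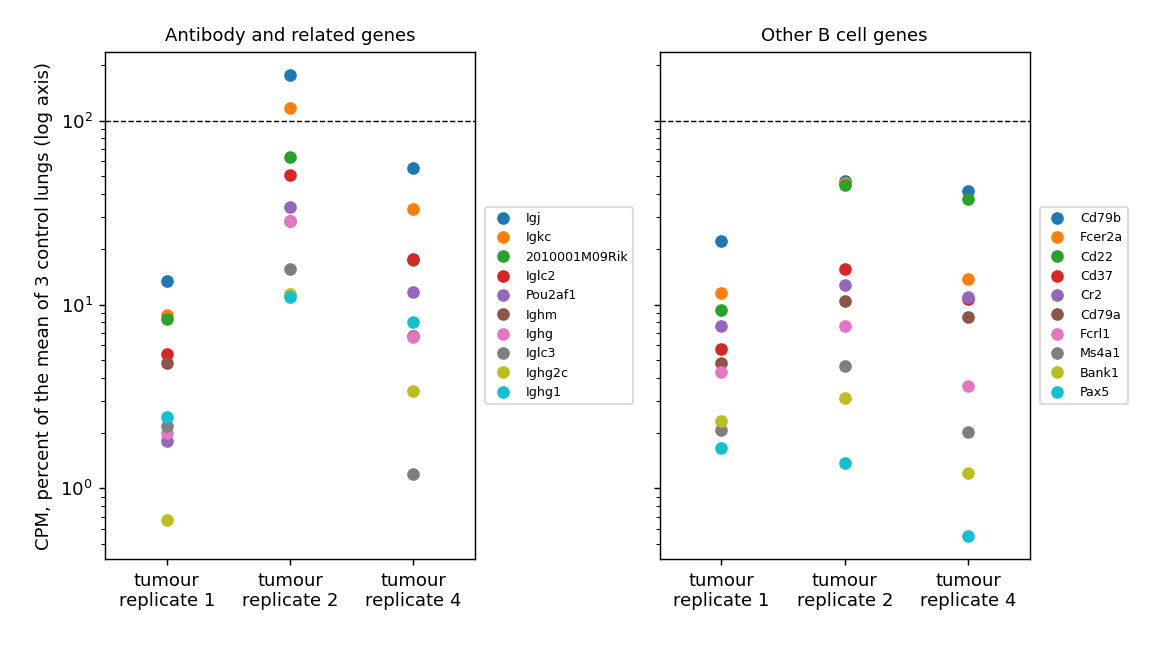
CPM in each tumour library as a percentage of the mean of the 3 control lungs (log axis, dashed line at the control mean). The left panel has 10 antibody and related genes and the right panel 10 other B cell genes. Among the B cell genes not drawn, Cd72, Btk, Ly86 and Cd53 are at 58.6% to 90.8% in tumour replicate 2. In tumour replicate 2, Igj is at 177% and Igkc at 117%, the other antibody and related genes lie between 10.9% and 63.4%, and the B cell genes of the right panel between 1.37% and 47.2%.

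The heavy chain mixture was described within each library, where scaling between libraries plays no part. The rows were Ighm, Ighg1, Ighg2c, Ighg and Gm900, the last of which RefSeq gives as Ighe. Igha and Ighd, which were not matched, are not part of the mixture. Of the reads on these 5 rows, Ighm took 57.2% ± 11.5 in tumours and 44.1% ± 1.90 in control lung (SD, n = 3 each). They held 536, 3259 and 853 reads in tumour replicates 1, 2 and 4, against 7573, 25482 and 12168 reads in control lung, so the tumour shares are less precise. The share of Ighm in tumour replicate 1 was 67.5%, with an exact (Clopper-Pearson) 95% interval of 63.4% to 71.5%, which covers counting error only. In tumour replicate 4 the share of Ighm was 44.8%, within the control range of 42.3% to 46.1%. Ighg2c, an IgG2 subclass, took 3.55% to 8.93% in tumours and 9.82% to 23.4% in control lung, without overlap. The IgG genes are near relatives, so the split of reads between them is uncertain. Ighg1 took 22.9% ± 9.55 in tumours and 25.0% ± 11.3 in control lung, with overlap. Among light chain reads, Iglc3 took 0.378% ± 0.288 in tumours and 2.63% ± 0.604 in control lung, and Igkc took 97.9% ± 0.50 in tumours and 94.2% ± 1.04 in control lung.

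**Figure D4:**
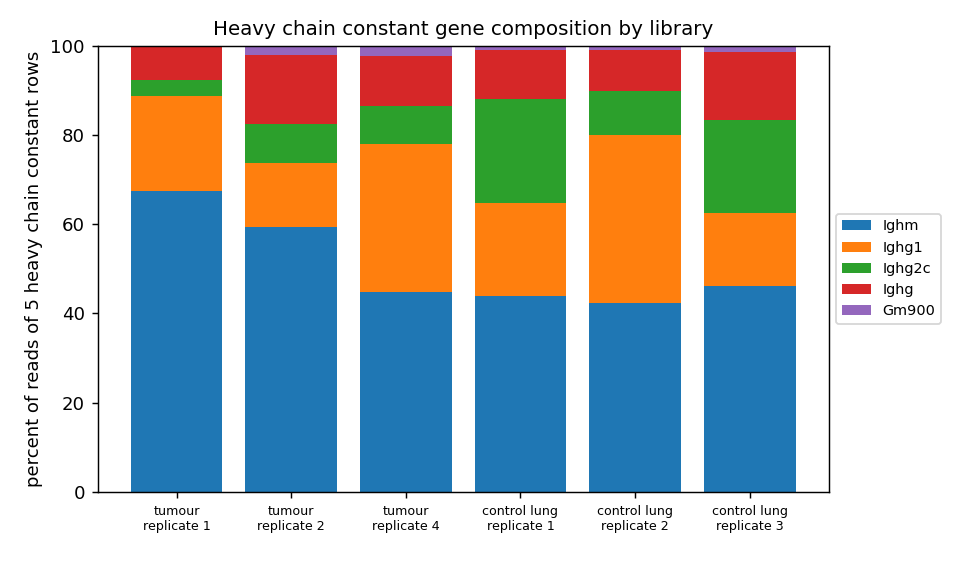
Share of each heavy chain constant row in the reads of the 5 rows together, in percent, as stacked bars for the 3 tumours (left) and the 3 control lungs (right). Ighm takes 44.8% to 67.5% in tumours and 42.3% to 46.1% in control lung, and Ighg2c takes a smaller share in each tumour than in any control.

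Besides Ighm, Igkc and Iglc2, 9 constant genes were listed, of which 4 were found in the count table. As levels, 3 of these 4 were lower in tumours (Ighg1, Ighg2c and Iglc3), and Gm900 did not pass. Ighg, which was not on the list, had 0.637, 8.98 and 2.10 CPM in tumours, against 22.7, 34.9 and 37.5 CPM in control lung. It was called lower too (log2 fold change -3.02 ± 0.80, adjusted p = 0.0164). Ighg1 had 1.86, 8.37 and 6.14 CPM in tumours, against 42.7, 146.3 and 40.5 CPM in control lung (log2 fold change -3.81 ± 0.69, adjusted p = 0.00280), and -2.93 without control replicate 2. Ighg2c had 0.311, 5.23 and 1.56 CPM in tumours, against 48.1, 38.0 and 51.5 CPM in control lung (-4.28 ± 0.81, adjusted p = 0.00337), and -5.65 without tumour replicate 2. Control replicate 2 was high for Ighg1 and low for Ighg2c among the controls.

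Of the 4 genes of receptor signalling, 3 were lower in tumours and Btk did not pass. Bank1, a scaffold that joins the receptor to its kinases, had 0.621, 0.826 and 0.325 CPM in tumours, against 16.5, 33.9 and 29.5 CPM in control lung. It was 44.6-fold lower in tumours (-5.48 ± 0.42, adjusted p = 4.42e-05). Blk, a Src family kinase of B cells, had 0.556, 0.826 and 1.02 CPM in tumours, against 4.83, 11.3 and 9.81 CPM in control lung (-3.44 ± 0.41, adjusted p = 0.000323). Blnk, the adaptor that carries the signal from Syk to phospholipase C gamma, had 2.26, 4.36 and 3.32 CPM in tumours, against 12.5, 16.2 and 14.6 CPM in control lung (-2.12 ± 0.28, adjusted p = 0.000519). Btk, a kinase that myeloid cells share, had 2.88, 11.98 and 9.87 CPM in tumours, against 15.4, 16.0 and 12.4 CPM in control lung. The groups did not overlap, but the log2 fold change of -0.83 ± 0.45 did not pass (adjusted p = 0.177).

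In the wider signalling pathway, most of whose genes other leukocytes use too, 6 of 18 genes were lower and 1 was higher, beside 23.8% and 18.1% of all genes tested, with a median log2 fold change of -0.45. Rasgrp3, an activator of Ras in B cells, had -2.63 ± 0.21 (adjusted p = 5.09e-05). Pik3cd, the delta catalytic subunit of phosphoinositide 3-kinase, had -1.79 ± 0.23 (adjusted p = 0.000514). The gene called higher was Malt1, a protease that links antigen receptors to NF-kappaB, at 92.5, 176 and 168 CPM in tumours, against 40.1, 44.7 and 39.9 CPM in control lung (1.81 ± 0.25, adjusted p = 0.000644).

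Among the 13 surface protein genes, 12 were lower in tumours and Cd72 did not pass. Ms4a1, the gene of the antibody target CD20 (chr19:11324654-11340669 in mm9), had 0.621, 1.38 and 0.607 CPM in tumours, against 20.9, 39.8 and 28.7 CPM in control lung. It was 34.1-fold lower in tumours (-5.09 ± 0.42, adjusted p = 5.72e-05). Faim3, the Fc receptor for IgM, had 0.0981, 0.251 and 0.0868 CPM in tumours, against 5.54, 8.11 and 8.85 CPM in control lung (-5.66 ± 0.47, adjusted p = 5.93e-05), and -6.29 without tumour replicate 2. The tumour levels of Faim3 are close to the 0.0456 to 0.0815 CPM that 3 reads make in a library.

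The Fc receptor-like genes of B cells were also low. Fcrl5 had 0, 0 and 1 read in tumours, against 18, 63 and 25 reads in control lung. The ratio of these reads, corrected for library size, was 114-fold lower in tumours with an exact 95% interval of 20.0 to 4534, which covers counting error only. Without tumour replicate 4, which holds the single tumour read, Fcrl5 was at least 27.2-fold lower, taking 3 reads over the group as the floor. Fcrla had 0.163, 0.718 and 0.195 CPM in tumours, against 5.46, 10.1 and 8.45 CPM in control lung (-4.47 ± 0.59, adjusted p = 0.000565), and -5.47 without tumour replicate 2. Fcrl1 had 0.360, 0.646 and 0.304 CPM in tumours, against 6.03, 10.4 and 8.85 CPM in control lung (-4.26 ± 0.39, adjusted p = 9.64e-05).

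Of 4 receptors that tune B cell responses, 3 were lower and Cd72 did not pass. Cr2, the complement receptor CD21, had 1.67, 2.78 and 2.39 CPM in tumours, against 15.7, 26.9 and 22.7 CPM in control lung (-3.26 ± 0.29, adjusted p = 8.2e-05). Fcer2a, the low-affinity IgE receptor CD23, had 1.54, 6.09 and 1.82 CPM in tumours, against 8.23, 15.4 and 16.0 CPM in control lung (-2.07 ± 0.55, adjusted p = 0.0162). It was at -2.97 without tumour replicate 2, and its call was lost without control replicate 2 or 3 (adjusted p = 0.0577 and 0.0723). Cd22, an inhibitory receptor for sialic acid, had 2.93, 13.95 and 11.7 CPM in tumours, against 25.96, 34.2 and 33.5 CPM in control lung (-1.72 ± 0.49, adjusted p = 0.0222). Its call was lost without control replicate 2 or 3 (adjusted p = 0.0686 and 0.0810), and 13.7% of the words of its transcript occur in other genes. Cd72, another inhibitory co-receptor, had 8.09, 9.53 and 8.16 CPM in tumours, against 9.97, 10.6 and 10.9 CPM in control lung, and did not pass (-0.29 ± 0.18, adjusted p = 0.233). The Cd72 value may include reads of its neighbour Tesk1, a kinase gene: 41.6% of Cd72 exon bases lie in Tesk1 exons, a read on both was counted for both, and Tesk1 had 10.6 to 13.3 CPM in tumours and 11.4 to 14.5 CPM in control lung.

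The tetraspanin and CD180 receptor genes, which other leukocytes express to differing degrees, were also lower. Cd37, a tetraspanin of B cells, had 1.18, 3.21 and 2.19 CPM in tumours, against 15.8, 24.2 and 21.6 CPM in control lung (-3.23 ± 0.38, adjusted p = 0.000287). Cd53, a tetraspanin found on most leukocytes, had 10.3, 41.5 and 29.8 CPM in tumours, against 77.9, 81.5 and 52.9 CPM in control lung (-1.38 ± 0.44, adjusted p = 0.0357). Cd180, a Toll-like receptor relative, had 3.07, 6.28 and 7.22 CPM in tumours, against 22.8, 22.5 and 23.7 CPM in control lung (-2.06 ± 0.30, adjusted p = 0.000973). Ly86, the secreted partner of CD180 that is also called MD-1, had 2.65, 5.23 and 3.82 CPM in tumours, against 7.61, 8.45 and 5.58 CPM in control lung (-0.89 ± 0.31, adjusted p = 0.0482). The Cd53 call was lost without tumour replicate 4 and without each control (adjusted p from 0.0662 to 0.109). The Ly86 call was lost without each library but tumour replicate 2 (adjusted p from 0.0656 to 0.165), and also with mitochondrial ribosomal RNA left out or with no filter on low counts (adjusted p = 0.0536 and 0.0504).

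All 5 transcription factors were lower. Pax5, the factor that fixes B cell identity (chr4:44544017-44724318 in mm9), had 0.131, 0.108 and 0.0434 CPM in tumours, against 4.81, 7.75 and 11.04 CPM in control lung. It was 79.6-fold lower in tumours (-6.31 ± 0.51, adjusted p = 5.23e-05), and unlike most of the group it was not higher in tumour replicate 2 than in tumour replicate 1. Bcl11a, a zinc finger factor needed for B cell development, had 0.409, 0.952 and 0.282 CPM in tumours, against 12.2, 15.7 and 17.8 CPM in control lung (-4.78 ± 0.46, adjusted p = 0.00011), and -5.43 without tumour replicate 2. Spib, an Ets factor of B cells and plasmacytoid dendritic cells, had 0.311, 1.67 and 0.456 CPM in tumours, against 4.86, 9.06 and 9.60 CPM in control lung (-3.27 ± 0.63, adjusted p = 0.00390), and -4.36 without tumour replicate 2. Pou2af1, the octamer coactivator OBF-1 that plasma cells keep, had 0.262, 4.88 and 1.69 CPM in tumours, against 11.2, 17.0 and 15.1 CPM in control lung (-2.67 ± 0.80, adjusted p = 0.0275). It was at -3.91 without tumour replicate 2, and its call was lost without tumour replicate 4 or any control (adjusted p from 0.0510 to 0.0884). The Pou2af1 to Pax5 ratio was 2.0, 45.3 and 39 in tumours and 2.33, 2.19 and 1.37 in control lung, so tumour replicate 1 lay among the controls and the other tumours far above. Pax5 had 8, 6 and 2 reads in tumour replicates 1, 2 and 4, so the tumour ratios are imprecise.

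Ebf1, early B cell factor 1, is also made by fibroblasts and pericytes of lung. It had 6.33, 5.30 and 4.75 CPM in tumours, against 32.8, 39.6 and 39.5 CPM in control lung (-2.77 ± 0.18, adjusted p = 2.41e-05). Mesenchymal genes fell in the same libraries: 8 of 9 tested were lower, with a median of -3.69 and summed levels of 159.5 to 264.8 CPM in tumours and 1256 to 1433 CPM in control lung. Tcf21, a lung fibroblast factor, and Itga8, an integrin of the same cells, were at -6.28 ± 0.22 and -6.14 ± 0.35 (adjusted p = 3.25e-06 and 1.63e-05). Their part in the Ebf1 result was not tested.

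Other genes of the B lineage were counted from lists. Of 14 other B cell markers, 10 were lower and 1 higher, with a median of -2.61. H2-Ob, a chain of the peptide-loading regulator H2-O, was at -2.96 ± 0.27 (adjusted p = 8.4e-05). H2-DMb2, a chain of the H2-M peptide-loading molecule that other antigen-presenting cells make as well, was the marker called higher, at 70.1, 74.7 and 61.7 CPM in tumours, against 23.7, 26.8 and 25.2 CPM in control lung (1.45 ± 0.14, adjusted p = 0.000128).

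Of 12 other transcription factors of the lineage, 7 were lower and 0 higher (median -1.44). Mef2c, a factor that B cells share with muscle and endothelium, was at -2.16 ± 0.16, and Pou2f2, the octamer-binding factor Oct-2, was at -4.00 ± 0.50 (adjusted p = 3.63e-05 and 0.000427). Pou2f2 was at -4.67 without tumour replicate 2. Genes of homing and survival were lower in 12 of 15 tested and higher in 0 (median -1.84). S1pr1, the sphingosine phosphate receptor that endothelium also carries, was at -4.46 ± 0.24 (adjusted p = 1.39e-05). The lymphoid chemokine rows Ccl19 and Ccl21a had 0 reads in all 6 libraries. Of 5 germinal centre genes tested, 3 were lower and 0 higher (median -1.35). Fas, a death receptor, was at -1.35 ± 0.21 (adjusted p = 0.00135). Neither of the 2 early B cell genes tested passed: Vpreb1, the surrogate light chain gene, had 0.539, 0.682 and 0.542 CPM in tumours, against 1.25, 0.319 and 0.467 CPM in control lung, and Dntt, the enzyme that adds bases at immunoglobulin junctions, had 0.0981, 0.144 and 0.130 CPM in tumours, against 0.244, 0.334 and 0.284 CPM in control lung.

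A mixed list held other plasma cell genes and genes of the secretory machinery, which other secreting cells use. Of its 16 genes, 7 were higher and 4 lower, beside 18.1% and 23.8% of all genes tested, with a median of 0.52. Fkbp11, an endoplasmic reticulum folding protein, was at 1.81 ± 0.28, and Xbp1, a factor of the secretory programme, was at 0.92 ± 0.15 (adjusted p = 0.00113 and 0.00153). The genes called lower were Slamf7, a plasma cell and lymphocyte receptor, Cd27, a memory B cell and T cell receptor, Pim2, a survival kinase, and Pigr, the epithelial transporter of polymeric immunoglobulin. Their log2 fold changes were -2.52 ± 0.50, -1.66 ± 0.27, -1.02 ± 0.28 and -3.03 ± 0.67 in that order (adjusted p = 0.00440, 0.00158, 0.0183 and 0.00707). Slamf7 was at -3.26 and Pigr at -3.98 without tumour replicate 2, and the Pim2 call was lost without control replicate 2 or 3 (adjusted p = 0.0511 and 0.0853).

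**Figure D5:**
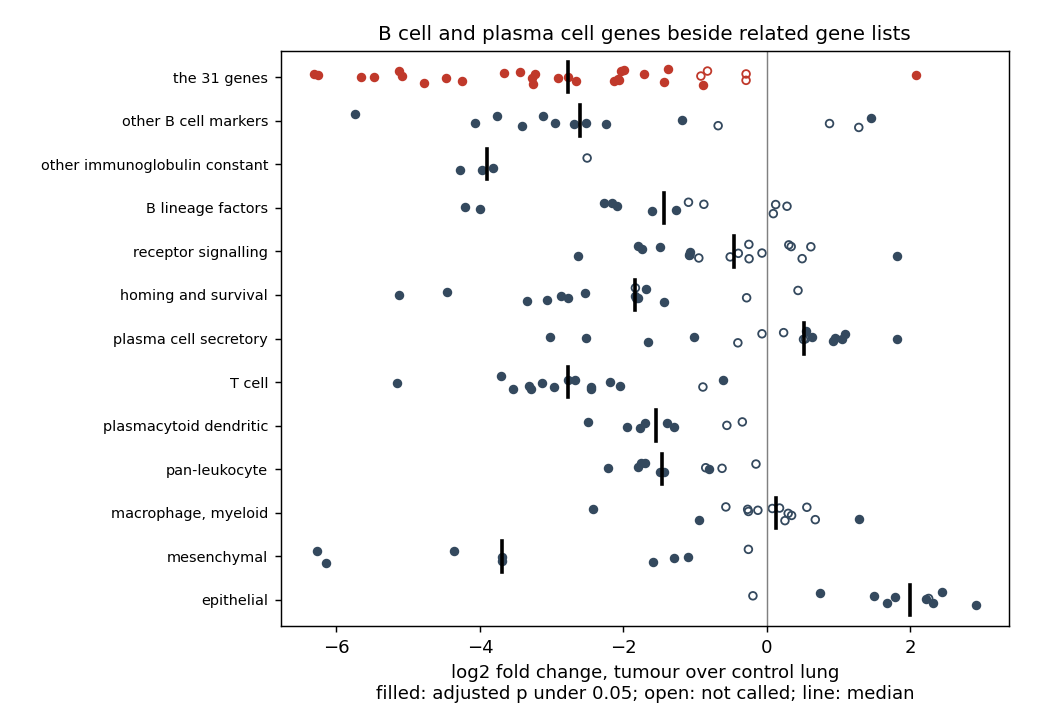
Log2 fold change, tumour over control lung, of the 31 genes (red) and of related gene lists, with 1 point per gene tested, filled where the adjusted p is under 0.05, and a line at each median. The median of the 31 genes is -2.77, beside -2.78 for T cell, -1.47 for pan-leukocyte, 0.13 for macrophage and 2.0 for epithelial genes.

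Pan-leukocyte genes served as a comparison within each library. Of 10 pan-leukocyte genes, 7 were lower and 0 higher (median -1.47), and their geometric mean was 12.6, 35.4 and 26.3 CPM in tumours, against 62.1, 66.0 and 55.0 CPM in control lung. Coro1a, an actin regulator, and Arhgdib, a signalling regulator, were at -2.21 ± 0.24 and -1.80 ± 0.32 (adjusted p = 0.000194 and 0.00238). As a ratio to that mean, 18 of 30 genes of the group were lower in every tumour than in every control, 3 were higher (Cd72, Sdc1 and Ly86) and 9 overlapped, with a median log2 difference of -1.60. Of the 19027 genes tested that had reads in every library, 8.65% were lower without overlap on the same ratio and 67.5% were higher. Fcrl5, with 0 reads in some libraries, has no such ratio. On this scale Pax5 differed by -5.03, Ms4a1 by -3.74 and Cd79a by -2.28, while Cd79b, Igkc, Cd53 and Btk overlapped.

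Other leukocyte lists differed from each other. T cell genes were lower in 14 of 15 cases and higher in 0 (median -2.78), with Cd28 and Cd5, both T cell surface receptors, at -2.05 ± 0.20 and -2.96 ± 0.34 (adjusted p = 0.000137 and 0.000283). Plasmacytoid dendritic cell genes, some of them shared with B cells, were lower in 6 of 8 cases and higher in 0 (median -1.54), with Tcf4, a factor of that lineage, at -1.77 ± 0.14 and Siglech, its surface lectin, at -2.49 ± 0.36 (adjusted p = 4.27e-05 and 0.000835). Macrophage and myeloid genes were lower in 2 and higher in 1 of 14 cases (median 0.13). Itgam, an integrin chain, and Csf1r, the growth factor receptor, were at -2.43 ± 0.26 and -0.95 ± 0.23 (adjusted p = 0.000206 and 0.0106), and the Csf1r call was lost without control replicate 3 (adjusted p = 0.0507). Lyz2, lysozyme, which alveolar type 2 cells make as well, was called higher at 1.29 ± 0.41 (adjusted p = 0.0355), a call lost without each library but tumour replicate 1 (adjusted p from 0.0506 to 0.133). The summed macrophage level was 3347, 10560 and 8101 CPM in tumours, against 4559, 3440 and 2792 CPM in control lung. Most of this sum was Lyz2, at 2955, 9096 and 6835 CPM in tumours, against 3241, 2476 and 2035 CPM in control lung. The geometric mean of the list overlapped between the groups, at 20.3, 71.5 and 54.2 CPM in tumours and 70.6, 46.3 and 35.4 CPM in control lung. On both scales the highest tumour was again replicate 2. The part of macrophages in the levels of that library was not tested.

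Blood content also varied among the controls. The summed level of erythroid genes was 29.8, 23.3 and 17.0 CPM in tumours, against 23.1, 492.4 and 64.5 CPM in control lung, and 3 of 4 genes tested were lower. Hbb-b2 and Hbb-b1, beta globins, were at -3.20 ± 0.92 and -3.61 ± 1.08 (adjusted p = 0.0236 and 0.0275), and neither passed without control replicate 2 (-1.43 and -1.27, adjusted p = 0.0918 and 0.0979), without tumour replicate 4 (adjusted p = 0.0691 and 0.0786) or with limma-voom (adjusted p = 0.0834 and 0.121). Hbb-b1 did not pass without tumour replicate 2 either (adjusted p = 0.0524). Control replicate 2 was also the highest control for 21 of the 31 B cell and plasma cell genes, against 36.8% of all genes tested. Without it, 19 of the 31 genes were called lower. The same 19 were called lower without control replicate 3, which had 64.5 CPM of erythroid genes. Calls over the whole table fell as well. With all libraries 4770 of 20001 genes tested were lower. The counts were 3930 of 20147 without control replicate 2 and 3870 of 20544 without control replicate 3. The part of blood content in the 7 lost calls was not tested.

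The calls differed in how firmly they held when single libraries were left out. Of the 26 genes called lower, 19 were called in each of the 6 fits that leave out 1 library, and the same 19 passed a test against a 2-fold change. The other 7 were Cd79b, Cd22, Fcer2a, Cd53, Iglc2, Ly86 and Pou2af1. Prdm1 kept a log2 fold change of -2.12 to -1.86 and Sdc1 of 1.93 to 2.23 over all the alternatives run.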

How the data were processed

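Total RNA libraries were sequenced by the submitters. The authors deposited raw counts of reads, with a column for each library. Counting was by featureCounts 1.6.5 over exons of GENCODE vM1, per the file headers, crediting a read that overlaps several names to each, with no strand setting given. A read on overlapping or antisense genes is thus ambiguous. STAR, limma, edgeR, R 3.6.0, GRCm38 and mm9 are named in the submitters' processing notes; the aligner's version and settings are not given in the sources used here.

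Counts were tested with edgeR 4.0.16 (R 4.3.3): filterByExpr (minimum count 10), TMM scaling, quasi-likelihood F test with group as the only term, Benjamini-Hochberg adjustment over all 20001 genes tested, threshold 0.05. SEs are derived from the F statistic. CPM is after TMM scaling, and RPKM divides it by exon length, which per the file headers is the authors' length per gene name. Shares have exact binomial 95% intervals. Shared sequence is the percentage of 32-base words of a GENCODE M21 transcript found in other genes. The fit was tested on simulated data. The members and lists were chosen with earlier results of these data known. Each member is named, and of each list the 2 genes with the smallest p and those called against the list's direction; some of these are not reported here. Replicate numbers 1 and 2 occur in both groups but did not pair the libraries. Alternatives used DESeq2 1.42.0, limma 3.58.1, other scalings, filters and thresholds, and each library left out.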

Additional observations from a re-analysis of the deposited data

How the results depend on the processing

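The count of 26 genes lower in tumours was between 19 and 28 when each library was left out, and 1 gene was higher in every fit. With DESeq2, limma-voom, RLE, upper-quartile or library-total scaling, or immunoglobulin rows left out of the scaling, 26 were lower. It was 25 without mitochondrial ribosomal RNA, with no filter and with a minimum count of 50, and 19 at an adjusted p under 0.01 or against a 2-fold change. Library totals alone moved the median of all genes to -0.10 on the log2 scale. Genes changed over the whole table numbered 8397, 3965 against a 2-fold change, and 6421 to 9436 with a library left out. With the replicate number as a block, 3641 genes changed and 22 of the group were lower; Iglc2, Cd53, Ly86 and Pou2af1 did not pass (adjusted p = 0.0720, 0.0597, 0.156 and 0.0692). Numbers are shared by 2 pairs only, whose deviations correlated at -0.182 and -0.00858, so the block is no pairing by design. Of 557 values of single members under 18 alternatives, 511 kept their direction and side of the threshold, 43 no longer passed, 2 newly passed and 1 changed sign: Igj was at 0.25 without tumour replicate 1, and from -1.54 to 0.25 over the fits that leave out a library. The log2 fold change of Vpreb1 changed sign with limma-voom (0.14) and ranged from -0.53 to 0.59 with a library left out, the last without control replicate 1, never passing. The cause was not tested. Shares of heavy chains without Ighd gave no separate value, since Ighd was not matched, and shares per exon length kept each direction. Genes with a few reads in tumours, such as Fcrl5 and Pax5, have folds limited by depth.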

Other observations

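Immunoglobulin variable segment rows, which belong to no comparison above, were spread unevenly in each library. Over 100 kappa variable rows, the effective number of segments (the inverse of the summed squared read shares) was 31.2, 16.4 and 30.1 in tumour replicates 1, 2 and 4, against 16.2, 32.1 and 15.6 in control replicates 1, 2 and 3. The leading segment in tumour replicate 2 was Igkv1-110, with 16.5% of 29260 reads (exact 95% interval 16.1% to 17.0%, counting error only). In control lung the leading segments were Igkv17-121 with 16.0% in replicate 1, Igkv4-59 with 7.58% in replicate 2 and Igkv1-117 with 21.4% in replicate 3. Over 37 heavy chain variable rows, tumour replicate 2 had 29.5% of 4406 reads on Ighv3-8, which took 18.6% and 11.1% in tumour replicates 1 and 4, against 3.20%, 12.1% and 4.399% in control lung. Similar segments share sequence, for which nothing was corrected, and these shares are descriptions with no test.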
